A study of Mus musculus with 4 samples.

Results

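The probes described here test whether changing a TBP binding site, with every dipyrimidine left in place, changed the signal of antibodies against UV photoproducts. They were chosen by name and length alone. The library with the site, TBP_59, held 256 probes of 59 bases, and the library with the mutated site, TBP_MUT_59, held 256 more. These 512 probe names are part of 6126 names and 5480 distinct sequences on the arrays. A probe with the site was paired with the mutated probe that carried the same 4 varied bases, which gave 256 pairs.

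Each of 4 arrays carried all of the probes. An antibody against cyclobutane pyrimidine dimers (CPD), diluted 1 in 400, was applied to 1 irradiated and 1 non-irradiated array. An antibody against 6-4 photoproducts (6-4PP), diluted 1 in 80, was applied to another irradiated and another non-irradiated array. The labels name the mouse as organism, which is the source of the antibodies, while the probes are synthetic DNA with no genome position. The sources used here do not give the UV dose or the scanner gain. For the 6-4PP antibody the sample titles and the array condition field contradict each other on which array was irradiated, and the field was followed. By the field, the medians of these probes reached at most 66.5 without UV and at least 3805 with it. The CPD arrays, on which no such conflict exists, split in the same direction, at 72.5 and 1188.5.

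UV light can join neighbouring pyrimidines of 1 strand. In a CPD the neighbouring bases are linked by a four-membered ring, and in a 6-4PP by a single bond between the bases. A dipyrimidine step (TT, TC, CT or CC) is therefore the unit that both antibodies read. TBP, the TATA-binding protein, binds TATA boxes of promoters through the minor groove and bends the DNA. The labels name an antibody for each of these arrays.

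The following pairs show the whole design and are among the pairs called on an irradiated array below. Capitals mark the 2 changed bases at positions 11 and 12 and the 4 varied bases at positions 18 to 21, counted from 1 at the 5′ end.
TBP_59_CATC: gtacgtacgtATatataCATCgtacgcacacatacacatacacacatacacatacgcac
TBP_MUT_59_CATC: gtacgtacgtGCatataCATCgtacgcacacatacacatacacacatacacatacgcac
TBP_59_CGTT: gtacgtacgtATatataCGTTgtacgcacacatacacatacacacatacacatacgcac
TBP_MUT_59_CGTT: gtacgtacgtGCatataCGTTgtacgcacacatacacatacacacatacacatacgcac
TBP_59_TTCG: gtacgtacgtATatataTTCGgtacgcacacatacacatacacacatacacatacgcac
TBP_MUT_59_TTCG: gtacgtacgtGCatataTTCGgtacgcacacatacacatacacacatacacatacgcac
TBP_59_CTCA: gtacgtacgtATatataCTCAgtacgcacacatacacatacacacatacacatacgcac
TBP_MUT_59_CTCA: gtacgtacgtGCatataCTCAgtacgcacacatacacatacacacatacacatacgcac

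The 2 libraries differed by A11G and T12C (site base, position, mutated base) and by nothing else. Neither change makes or removes a dipyrimidine on either strand, so each of the 256 pairs held the same steps of every type. Every step lay between base 17, the last A of the site, and base 22, the G after the varied bases. The count covers either strand and omits the last 10 bases that all library sequences share. A probe held 1, 3 or 5 steps, in 80, 160 and 16 pairs. Between the changed positions and the nearest possible step lay 4 bases. The string TATATA, which reads the same on both strands, occurred in all 256 site probes and in 16 mutated probes, against 19.1% of all sequences on the array. The string TATAAA, searched on both strands, occurred in 17 probes of each library, against 1.72% of all sequences. A match says only that these letters are present.

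The value of a probe was the median intensity of its 10 spots, without flagged spots. Flags removed 108 of the 5120 spots of these probes from the unirradiated 6-4PP array, 35 from the irradiated one and 0 from either CPD array. Every probe kept at least 8 spots. The ceiling of 65535 was reached by 156 of these spots and by the medians of 12 probes on the irradiated 6-4PP array, and by 0 on the other arrays. The median SD of log2 intensity over the spots of a probe was 0.60 for CPD and 0.28 for 6-4PP after UV, and 0.22 and 0.15 without UV. The authors also deposited an adjusted intensity, which divides each spot by the median of its surroundings. With this spatial adjustment the SDs after UV were 0.28 and 0.25. Each group was 1 array, so no value below has a replicate array behind it, and all errors are between spots of 1 array.

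All 512 probes were brighter on the irradiated array of each antibody. On the CPD arrays the lowest irradiated median was 1188.5 and the highest non-irradiated median 72.5. On the 6-4PP arrays these were 3805 and 66.5. The median rise was 7.15 on the log2 scale for both libraries with CPD. With 6-4PP it was 8.17 with the site and 8.13 with the mutated site. A rise between 2 arrays includes any difference in scanner gain. The comparison of site and mutated probes within an array does not.

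Signal followed the 4 varied bases far more than the site. On the irradiated 6-4PP array the levels of the 256 site probes had an SD of 0.98 (log2) and those of the mutated probes 0.94, while the differences within pairs had an SD of 0.16. On the irradiated CPD array the SDs of the levels were 0.86 and 0.79, and that of the pair differences 0.41, or 0.21 with the spatial adjustment. Across the 256 sets of varied bases, log2 levels with and without the site correlated with a Pearson r of 0.99 and a Spearman rho of 0.99 on the irradiated 6-4PP array. The values were 0.88 and 0.88 on the irradiated CPD array. These are descriptions over sequences that share an array and a frame, not over replicates.

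The same varied bases were brightest in both libraries. With the CPD antibody, ATTT gave 21657.5 ± 4723 with the site and 16370.5 ± 3142 without it (SD, 10 spots each). TTTT gave 18384 and 18295, and ATTA 17442 and 15716. Both libraries had 6 sets in common among their 10 brightest on that array. All 10 in either library hold a TT step, against 117 of all 256 sets. With the 6-4PP antibody 9 of the 10 brightest sets were shared, and 5 sets lay at the ceiling in both libraries, where they have no order. Among these were TTAA and ATCA, which holds TC on the listed strand and TT and CT on the opposite strand. The dimmest set by the mean of both log2 levels was CAGC with 6-4PP, at 4215 and 4363, and CGGC with CPD, at 1249.5 and 1413.5. CAGC holds a single CT and CGGC a single CC, each on the opposite strand.

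On the irradiated 6-4PP array site probes were slightly brighter than their mutated partners. The median pair difference, site minus mutated, was 0.093 ± 0.029 on the log2 scale (SD over 10 spot sets), a ratio of 1.07. A spot set is the median of the 256 differences from 1 numbered spot of each probe, and all 10 sets were above 0, from 0.053 to 0.16. The site probe was the brighter one in 192 pairs and the dimmer one in 59, and 5 pairs were equal. The quartiles of the pair differences were 0.0009 and 0.19, and the extremes -0.69 and 0.60. The median over the 2560 pairs of a site and a changed site in all 10 paired libraries on this array was 0.012. An exact two-sided permutation test of the spots of each pair, with Benjamini-Hochberg adjustment over those 2560 pairs, called 10 of the 256 pairs higher with the site and 2 lower. Over all 2560 pairs, 2.42% were called higher and 7.93% lower. The shares of the 256 pairs were 3.91% and 0.781%. Of the 203 lower calls, 54 and 138 came from the 2 p53 libraries, and each MITF library had 1 to 3. Of the 62 higher calls, the 4 TBP libraries gave 10, 19, 11 and 6. At an unadjusted p under 0.05 there were 35 higher and 5 lower, against 8.71% and 12.1% of all pairs. A change of at least 1.5-fold was seen in 1 pair in each direction, against 0.547% and 5.35%. Such a call compares 2 sequences on 1 array. The adjustment pooled all 10 libraries, so the calls here depend also on the p-values of the others. Its rate of 0.05 holds for the 2560 pairs together and not for these 256 alone.

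On the irradiated CPD array no shift was seen beyond the spread of spots. The median pair difference was 0.021 ± 0.063 (SD over 10 spot sets), and the sets ran from -0.073 to 0.10. Site probes were brighter in 134 pairs and dimmer in 122. The same exact permutation test, adjusted in the same way, called 1 pair higher and 0 lower, against a background of 0.0781% in each direction. At an unadjusted p under 0.05 there were 14 higher and 5 lower, against 3.4% and 4.96% of all pairs. A change of at least 1.5-fold was seen in 16 pairs with the site higher and 20 with it lower, against 6.21% and 8.4%, which is near the background. With the spatially adjusted intensity the counts of members were 17 higher and 18 lower at an unadjusted p under 0.05, and 5 higher and 1 lower at 1.5-fold. Over the 10 paired libraries these counts ran from 0 to 63 higher and from 6 to 42 lower at that p. At 1.5-fold they ran from 0 to 5 higher and from 0 to 13 lower. The median standard error of a pair difference was 0.28 here and 0.14 on the irradiated 6-4PP array. With the spatial adjustment these were 0.13 and 0.12, so the precision of single pairs was then about equal for both antibodies.

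The non-irradiated arrays gave differences of the same order. Without UV the median was 0.047 ± 0.026 for CPD and 0.037 ± 0.017 for 6-4PP (SD over 10 spot sets each). Site probes were brighter in 162 pairs on either array. The exact permutation test called 0 pairs higher and 1 lower on the unirradiated CPD array, against backgrounds of 0.391% and 1.91%, and at an unadjusted p under 0.05 there were 19 higher and 4 lower, against 4.02% and 7.46%. For 6-4PP without UV it called 1 higher and 3 lower, against 4.49% and 10.2%. Unadjusted there were 19 and 5, against 10.6% and 18.4%. No pair of either array reached 1.5-fold, against 0.117% higher and 0.625% lower for CPD and 0.195% and 0.0391% for 6-4PP. Intensities there were low, with medians of 31 and 56, and the medians move in steps of 0.5, which is 0.023 and 0.013 on the log2 scale. The UV difference of each pair minus its non-UV difference had a median of 0.050 ± 0.038 with 6-4PP and -0.030 ± 0.073 with CPD (SD over 10 spot sets). It sets log2 ratios at very unlike intensities against each other, with medians after UV of 4410.75 for CPD and 15670.5 for 6-4PP. It is therefore not a correction for background signal. The 6-4PP value was above 0 in all 10 spot sets and in 168 of 256 pairs.

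Pooled over the sets of varied bases, median levels were higher with more dipyrimidine steps in both libraries. On the irradiated 6-4PP array the median of probes with 1, 3 and 5 steps was 7774.75, 19036.5 and 25759.5 with the site, and 7871, 17498.8 and 24427.5 with the mutated site. On the irradiated CPD array it was 2749.25, 5260.75 and 6758.5 with the site, and 2893.5, 5031.5 and 5659.25 with the mutated site. The varied bases of all 5-step probes were purines, so every step lay on the opposite strand. Step count and pattern cannot be told apart there. With 6-4PP some sets with 3 steps were brighter, at 36217.5 and 31294.2 for 2 pyrimidines followed by 2 purines. Others were dimmer, at 16714.5 and 15854.3 for 3 purines followed by 1 pyrimidine. The median pair difference with 6-4PP was 0.040 ± 0.063 for 1 step, 0.115 ± 0.032 for 3 steps and 0.115 ± 0.104 for 5 steps (SD over 10 spot sets). The difference between these classes was not tested. Site probes were brighter in 48 of 80, 129 of 160 and 15 of 16 pairs. With CPD the differences were -0.029 ± 0.178, 0.024 ± 0.049 and 0.20 ± 0.13.

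The type of a single step ordered the probes in the same way with and without the site. On the irradiated CPD array probes with a single TT had medians of 7196.5 and 6662.75 (20 pairs), those with TC 3900.75 and 3762.75 (12 pairs), those with CT 2514 and 2698.25 (28 pairs) and those with CC 2209.75 and 2303.75 (20 pairs). On the irradiated 6-4PP array TC was highest, at 22499.5 and 20721.5. TT followed at 13689 and 12013, then CC at 9002.25 and 8456.75, and CT was lowest at 5705 and 5917.5. The pair differences on that array were 0.16 ± 0.13 for TT, with the site probe brighter in 17 of 20 pairs, and -0.009 ± 0.102 for TC, -0.031 ± 0.124 for CT and 0.063 ± 0.127 for CC. Site probes were brighter in 5 of 12 pairs with TC, 12 of 28 with CT and 14 of 20 with CC. The spreads of the 4 types overlapped, but each is the spread of medians from 1 spot a probe. The difference between types was not tested.

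A single step could lie at 5 places, and 16 pairs held it at each. With 6-4PP the median pair difference was 0.10 ± 0.16 where the step began at base 17, the last base of the site, and lay on the opposite strand. It was 0.069 ± 0.081 at base 18 and 0.014 ± 0.143 at base 19. At base 20 it was -0.004 ± 0.129, and at base 21, the place farthest from the changed bases, 0.068 ± 0.164. These values overlapped within their spread. Levels differed with the place. Probes with the step at base 18, where all 4 types occur on the listed strand, had 12822.8 and 11774.2 on the irradiated 6-4PP array. Those with it at base 17, where the opposite strand holds TT or CT, had 6330 and 6122.25.

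The first varied base, which touches the site, went with different pair differences. With 6-4PP the median was 0.16 ± 0.042 for A, 0.11 ± 0.052 for T, 0.075 ± 0.034 for G and 0.047 ± 0.059 for C (SD over 10 spot sets, 64 pairs each). Site probes were brighter in 57, 47, 47 and 41 of 64 pairs in that order. With CPD A was highest again, at 0.15 ± 0.093 with 44 of 64 pairs brighter, and C lowest at -0.088 ± 0.121 with 22 of 64. The spatial adjustment kept A highest and C lowest on both arrays, at 0.14 and 0.050 with 6-4PP and at 0.12 and -0.099 with CPD. The same 64 pairs with C, printed a second time at other spots, gave medians without the adjustment of 0.022 with CPD, above the 0.004 of T, and 0.072 with 6-4PP, close to the 0.075 of G. With the spatial adjustment that second printing gave -0.079 with CPD and 0.063 with 6-4PP. Both lay below the adjusted medians of the other first bases, of which G was lowest, at -0.029 and 0.099. The difference between first bases was not tested. The 16 pairs that begin with CG, chosen after their values were seen, had a median of -0.069 ± 0.117 with 6-4PP and -0.63 ± 0.33 with CPD, or -0.24 with the spatial adjustment.

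By central dinucleotide of the varied bases, pairs with TT had the largest median with 6-4PP, 0.19 ± 0.11 over 16 pairs, with levels of 35310.8 and 29553.8 and the site probe brighter in 15 pairs. AC and CG had medians of 0.028 and 0.025. All 16 central dinucleotides were above 0 on that array, in medians that share its spots. With CPD they ran from -0.19 for AC to 0.23 for AG, with spreads over spot sets of 0.33 and 0.27. The spatial adjustment turned the sign of both, to 0.023 for AC and -0.009 for AG. By pattern of purines (R) and pyrimidines (Y), the medians with 6-4PP ran from -0.004 for YRYY to 0.21 ± 0.082 for RRRY, where 15 of 16 pairs were brighter with the site. With CPD the patterns ran from -0.19 for YRYY to 0.20 for RRRR. These orders hold for the unadjusted intensity. With the spatial adjustment RRRY was 0.13 and RRYR was largest with 6-4PP, at 0.17, while YRYY was -0.018 and RRRR 0.11 with CPD.

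Of the 12 pairs called for 6-4PP after UV, GTGG had the largest difference, at 15119 (spots from 10278 to 19679) with the site and 10361 (4419 to 16856) without it. Its difference was 0.55 ± 0.18 (SE) with an adjusted p of 0.038 by the exact permutation test. The pair holds 1 CT and 2 CC steps. TTCG gave 60796 (39909 to 65535) with the site and 42681.5 (36607 to 45851) over 8 spots without it. That difference was 0.51 ± 0.097 with an adjusted p of 0.026 by the exact test. At the ceiling lay 2 of its site spots, whose true intensity may be higher. The ranges of spots overlapped in both pairs.

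CATC had the smallest adjusted p of the 12, 0.0024 by the exact permutation test. Its single step is a TC on the listed strand. The site probe read 26547.5 (21528 to 33734) and the mutated probe 20027.5 (17515 to 24036), a difference of 0.41 ± 0.077 (SE). TGGT, with a single CC on the opposite strand, read 10725.5 (8893 to 14544) and 8285 (6204 to 10738), a difference of 0.37 ± 0.11. TGAT, with a single TC on the opposite strand, read 30123 (25642 to 39465) and 24569.5 (21968 to 29815), a difference of 0.29 ± 0.071. The other 5 pairs called higher were AAAC at 0.29, AGAG at 0.24, AGAT at 0.21, ATTA at 0.19 and ATTT at 0.18, all with A as the first varied base.

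Both pairs called lower with the site begin with CGT. CGTT, with a single TT, read 6724.5 (5163 to 8397) with the site and 9576.5 (6543 to 18482) without it. Its difference was -0.51 ± 0.19 (SE) with an adjusted p of 0.042 by the exact permutation test. CGTA, with a single CT, read 4421 (2676 to 6998) and 6246.5 (4614 to 8908), a difference of -0.50 ± 0.15 with an adjusted p of 0.037 by the exact test. Spots of site and mutated probes overlapped in both pairs. The most negative difference on the array, -0.69 ± 0.24 for GCGC, and the most positive, 0.60 ± 0.17 for TCGG, did not pass, with adjusted p of 0.084 and 0.082 by the exact test. With the spatially adjusted intensity 11 pairs were called, and 3 of these were also among the 12. These were CGTT with the site lower, and GTGG and TGGT with it higher. Over the 10 paired libraries the calls with that intensity ran from 1 to 19 higher and from 0 to 152 lower. By that intensity CATC had an adjusted p of 0.058 by the exact test and TTCG one of 0.051. TGAT had 0.50 and CGTA 0.17, and all 4 pairs kept their signs.

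The 1 pair called for CPD after UV was CTCA, with 1 TC and 2 CT steps. It read 6486.5 (4322 to 8657) with the site and 2388 (1247 to 5249) without it, a difference of 1.44 ± 0.22 (SE) with an adjusted p of 0.048 by the exact permutation test. The deposited median of the area around the spots differed between the same probes by 1.12 in the same direction. With the spatially adjusted intensity the difference was 0.18, with an adjusted p of 0.33 by the exact test. With 6-4PP the same pair read 64245.5 and 59349, close to the ceiling. Pairs furthest apart between the antibodies in the opposite direction were CTAC at -1.12 with CPD and 0.058 with 6-4PP, CGAG at -1.07 and 0.029, and GTCG at -0.77 and 0.29. In the direction of CTCA followed TGAT at 1.18 and 0.29 and GTGA at 1.29 and 0.44. None of these passed the test on the CPD array. With the spatial adjustment the CPD differences were -0.27 for CTAC, -0.21 for CGAG, -0.19 for GTCG and 0.28 for TGAT. That of GTGA turned its sign, to -0.078.

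Large CPD differences went with the place of the spots. Across the 256 pairs, the difference on the irradiated CPD array correlated with the difference of the local median between the 2 probes, with a Pearson r of 0.78 and a Spearman rho of 0.76. For 6-4PP these were 0.38 and 0.36. The local median around these spots ran from 1144 to 7874 on the irradiated CPD array. All 5120 spots had the same place on all 4 arrays, and the local median differences of the UV arrays correlated with each other with a Pearson r of 0.32 and a Spearman rho of 0.29. The pair differences of the 2 UV arrays correlated with a Pearson r of 0.42 and a Spearman rho of 0.36, and with 0.33 and 0.33 after the spatial adjustment. Between either UV array and the non-UV array of the same antibody, r was -0.072 for CPD and 0.013 for 6-4PP. These are descriptions over pairs that share spot positions, and the part of the local median in the pair differences was not tested.

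A second printing gave a check within each array. For the 64 pairs with C as the first varied base, the same sequences were also printed under names of the TBP_E59 and TBP_MUT_E59 libraries, at other spots. Levels repeated well on the irradiated 6-4PP array, with a Pearson r of 0.99 between printings, and with 0.77 on the irradiated CPD array, or 0.97 after the spatial adjustment. Pair differences repeated much less, with r of 0.35 on the irradiated 6-4PP array and -0.10 on the irradiated CPD array, or 0.38 and 0.30 after adjustment. The median difference with 6-4PP was 0.047 in the first printing and 0.072 in the second, and 41 of 64 pairs kept their sign. With CPD the median turned from -0.088 to 0.022, and 31 of 64 pairs kept their sign. With the spatial adjustment it was -0.099 and -0.079, and 41 pairs kept their sign.

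Of the called pairs, 4 had a second printing. CATC was called again on the irradiated 6-4PP array, at 28124.5 and 24588.5, a difference of 0.19 ± 0.081 (SE) with an adjusted p of 0.035 by the exact permutation test. This holds for the unadjusted intensity. With the spatial adjustment 3 of the 64 pairs were called there in the first printing, 2 in the second and 0 in both. CGTT read 6655.5 and 7201 in the second printing, a difference of -0.11 ± 0.25, and CGTA read 6918.5 and 6296.5, a difference of 0.14 ± 0.23, so neither call was repeated. CTCA on the irradiated CPD array turned its sign, at 2379 with the site and 5431 without it, a difference of -1.19 ± 0.34. Its adjusted p was then 0.53 by the exact test.

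The other TBP libraries carry the same 2 changed bases. In the library of 60 bases (TBP_60), which has a C after the varied bases, the median pair difference on the irradiated 6-4PP array was 0.11 ± 0.030, with 19 pairs called higher and 1 lower. The E designs have a C before the varied bases, and TBP_E59 holds the 64 second printings. In TBP_E59, of 59 bases, it was 0.091 ± 0.017, with 11 and 1. In TBP_E60, of 60 bases, it was 0.083 ± 0.024, with 6 and 0. Over all 2560 pairs the calls were 2.42% higher and 7.93% lower. At an unadjusted p under 0.05 by the exact permutation test, TBP_60 had 48 higher and 2 lower. TBP_E59 had 40 and 2 and TBP_E60 36 and 3, against 8.71% and 12.1% of all pairs. On the irradiated CPD array the medians were 0.016 ± 0.060, 0.038 ± 0.064 and 0.017 ± 0.043 in that order. With the spatial adjustment the CPD medians of the E designs were -0.021 and -0.050, while those of TBP_59 and TBP_60 were 0.015 and 0.015. The difference between libraries was not tested. Pairs with the same varied bases in TBP_59 and TBP_60 had differences that correlated with a Pearson r of 0.19 and a Spearman rho of 0.21 for 6-4PP after UV. For CPD after UV these were -0.077 and -0.026.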

How the data were processed

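Fluorescence of the Alexa488 label was deposited by the authors as linear intensity per spot, per the file headers, with a column that leaves flagged spots empty, a local median and a spatially adjusted intensity. In the files the adjusted intensity equals the unflagged intensity times a constant over the local median. The sources used here name no scanner or image software. The Cy3 column is 1 throughout, so no correction for DNA amount per spot could be made.

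Groups follow the array condition field. Probe names gave the libraries, and pairs share the final 4 bases. The value of a probe is the median of unflagged spots, and differences are log2 site minus log2 mutated. Errors over spot sets are SDs over 10 spot numbers, and the SE of a pair is that of its mean log2 difference. The exact permutation test used the absolute difference in mean log2 intensity, with a smallest possible p of 1.08e-05 for 10 against 10 spots, Benjamini-Hochberg adjustment over 2560 pairs and a threshold of 0.05. It was tested on simulated data. Spots are technical replicates, so p-values measure only the spread between spots.

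Named pairs were, per UV array, up to 5 called pairs per direction below the ceiling and the 3 pairs per direction furthest apart between the UV arrays; pairs outside this rule were chosen after their values were seen. The members and groupings were chosen with earlier results of these data known. Python 3.11.15, pandas 2.3.3, NumPy 2.4.6 and SciPy 1.17.1 were used. Other settings tried were the spatially adjusted values, the mean of log2 over spots, flagged spots kept, a 1.5-fold rule, pairs with equal steps, pairs below the ceiling and the titles of the 6-4PP arrays.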

Additional observations from a re-analysis of the deposited data

Results flagged for a closer look

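The UV minus non-UV value of the pair difference had opposite signs for the 2 antibodies, with a median of -0.030 for CPD and 0.050 for 6-4PP. With 1 array per condition the difference between the antibodies was not tested. The CPD value was smaller than its spread over spot sets, 0.073.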

How the results depend on the processing

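The median pair difference of each array kept its sign and moved by less than its SD over spot sets under all 17 alternatives run. The step counts were equal in all 256 pairs, so that alternative equals the value reported on every array. The CPD arrays had 0 flagged spots of these probes, so keeping flagged spots could change nothing there. With the adjusted intensity, called pairs on the unirradiated CPD array were 2 lower in place of 1, for CPD after UV 0 higher and 1 lower in place of 1 and 0, for 6-4PP without UV 2 higher and 1 lower in place of 1 and 3, and for 6-4PP after UV 1 lower in place of 2, with 10 higher in both. With flagged spots kept, 2 pairs were called higher on the unirradiated 6-4PP array. Shares over all 2560 pairs are not given for the adjusted intensity or for flagged spots kept. Over the 10 paired libraries, calls with the adjusted intensity ran from 0 to 6 higher and 0 to 65 lower on the unirradiated CPD array. For CPD after UV they ran from 0 to 6 higher and 1 to 7 lower. For 6-4PP without UV they ran from 0 to 55 and 0 to 128, and after UV from 1 to 19 and 0 to 152. A rule of at least 1.5-fold gave 16 higher and 20 lower for CPD after UV and 1 and 1 for 6-4PP after UV. Without UV it gave 0 lower for CPD, and 0 and 0 for 6-4PP. By the titles of the 6-4PP arrays, under which all 512 probes would be dimmer after UV, the UV minus non-UV value is -0.050. No paired analysis was possible because each group has 1 array and the labels give no replicate numbers. The median SE of a CPD pair difference after UV was 0.28, and 0.13 with the adjusted intensity. The ceiling limits the brightest pairs with 6-4PP.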

Other observations

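Non-irradiated DNA also gave a sequence pattern with the CPD antibody, at low intensity. On the unirradiated CPD array ATTG read 69.5 with the site and 70 without it, TTAA 62.5 and 72, TTAG 56.5 and 72.5, ATTA 64 and 51.5, and AATT 58.5 and 51.5, against library medians of 32 and 30.5. Both libraries had 8 sets in common among their 10 brightest, and all of these hold a TT step, against 117 of all 256 sets. Log2 levels with and without the site correlated there with a Pearson r of 0.86 and a Spearman rho of 0.65 over 256 sets that share an array. Only TTAA was called between site and mutated probe on that array, at -0.20 ± 0.053 (SE) with an adjusted p of 0.017 by the exact permutation test, and it was called with the adjusted intensity too. TTAA lay at the ceiling in both libraries on the irradiated 6-4PP array.

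On the unirradiated 6-4PP array the order of the sets repeated less, with a Pearson r of 0.38 and a Spearman rho of 0.36 between libraries and 3 shared sets among the 10 brightest. Its called pairs were ACCT, at 64 with the site and 54 without it, and GGCC at 50 and 60, AATA at 48.5 and 54 and AGAC at 49 and 54. On the irradiated 6-4PP array none of these 4 was among the called pairs, and GGCC read 6667 and 6517 there.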
